A study of Mus musculus with 4 samples.

Results

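The synaptonemal complex is the protein ladder that holds paired homologous chromosomes together during meiotic prophase, when they pair and recombine. Its lateral elements are built on the axis of each chromosome from SYCP2 and SYCP3, transverse filaments of SYCP1 reach across the gap, and SYCE1, SYCE2, SYCE3 and TEX12 form the central element where the filaments meet. HORMAD1 and HORMAD2, proteins with a HORMA domain, sit on axes that are not yet joined and promote break formation and surveillance there, and the ATPase TRIP13 removes them as the axes join. In the mouse female this takes place before birth, in the fetal ovary.

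The 10 genes described here, Sycp1, Sycp2, Sycp3, Syce1, Syce2, Syce3, Tex12, Hormad1, Hormad2 and Trip13, were chosen by name as the structural genes of this complex and its HORMA-domain proteins, and all 10 were found among the 55401 gene identifiers of the count tables. RNA came from oocytes of E18.5 fetuses, sorted by the surface antigen SSEA-1 from the ovaries of fetuses of ICR mice. The mothers, fed for 4 months on high-fat chow (HFD) or on normal chow (ND), were mated with males on normal chow, so the diets differ between mothers and not between fathers. Each diet has 2 libraries, each made by SMART-Seq2 from a pool of oocytes of several fetuses. The labels do not say whether the pools share a litter, so p-values measure only the spread between pools, which may be in part technical.

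Total counts per library were 8223255 and 7815015 for ND (replicates 1 and 2 in that order, as throughout) and 6456825 and 5723605 for HFD. Levels are given as raw counts and as counts scaled to a library total of 1000000 (CPM), and a count of 3, taken as the detection floor for counting error only, equals 0.365 to 0.524 CPM. The germ cell label was checked with 12 marker genes, of which 8 or 9 per library were above a background limit defined further on. Their summed level was 1790 and 3866 CPM under ND against 4288 and 4102 CPM under HFD, with none at 0, but their leading gene changed from Dazl in both ND libraries to Nobox in HFD replicate 1 and Sohlh1 in HFD replicate 2. Dazl made up most of the ND sums, at 1733 and 3770 CPM, and was at 453 and 8.56 CPM in HFD. In CPM both HFD libraries lay above both ND libraries for 7 of the 12 markers, below them for 2 and overlapped for 3. Over the 19335 genes that passed a filter on low counts these shares were 13.9% above and 13.4% below. Of the 7, Tdrd1 was under the background limit in every library. Sohlh1, also among the 7, was at 2.94 CPM in HFD replicate 1 and 1921 CPM in HFD replicate 2. Taf7l, another of the 7, went from 17 and 53 to 5994 and 5517 counts. Ddx4, a defining germ cell gene and with Dazl lower in HFD, was counted 49 and 97 times under ND and 5 and 14 times under HFD. Both HFD values of Ddx4 were under the background limit, and both ND values were above it. Marker lists of other ovarian cells also differed between libraries. Stromal collagen and related genes (9 genes, 3 to 6 above background, most abundant Col1a1, Col1a2 or Col3a1) summed to 2843 and 69.0 CPM in ND and 2222 and 7700 CPM in HFD. Pregranulosa genes (9 genes, 0 to 2 above background) summed to 38.3 and 410 CPM in ND and 19.4 and 1168 CPM in HFD, most abundant being Wt1, Fst, Lgr5 and Amhr2 in turn. The larger sums came mostly from a single gene, Fst with 383 CPM in ND replicate 2 and Amhr2 with 1113 CPM in HFD replicate 2. Blood genes (5 genes) summed to 1972 CPM in ND replicate 1, led by Hbb-bs, and to at most 4.54 CPM elsewhere, with 2 globin genes at 0 in each of the other libraries. Endothelial genes (5 genes) reached 698 CPM in HFD replicate 1, against 18.8 to 68.6 CPM elsewhere, but Kdr alone held 681 CPM of this. In that library Cdh5, Tek and Emcn were at 1.55, 3.10 and 2.32 CPM. Macrophage genes (6 genes, led by Ptprc) stayed between 10.2 and 37.0 CPM with C1qa at 0 in ND replicate 1 and Lyz2 at 0 in ND replicate 2. The part of these cell markers in the results that follow was not tested. In bulk RNA of this kind, fewer cells of a type and less RNA per cell cannot be told apart.

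The promoters of the genes share short sequences. All 10 genes matched the RefSeq promoter table (GRCm38.p6), and the 250 bases before each start were searched on both strands for CACGTG, the E-box core read by helix-loop-helix factors. It was present in 5 of the 10 genes, namely Sycp1, Sycp3, Syce2, Tex12 and Hormad1, against 6.86% of 27025 genes. For 4 of them, which carry the same 6 bases, the nearest match to the start is shown. Their RNA, described below, was highest in HFD replicate 1 for Sycp1 and Sycp3. For Tex12 it was highest in ND replicate 1 and for Hormad1 in ND replicate 2. Each line runs 5′ to 3′ on the strand of the gene, and the capitals mark the E-box.
Sycp1, chr3:102936177-102936206, minus strand: tagagaacccggCACGTGggaagggaaatc
Sycp3, chr10:88459532-88459561, plus strand: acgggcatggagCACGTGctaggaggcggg
Tex12, chr9:50561344-50561373, minus strand: ccgcgagactgtCACGTGgctcgcgcgctg
Hormad1, chr3:95559645-95559674, plus strand: atgcgcactgcgCACGTGctgaccggagcg

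These E-boxes lie 94, 43, 93 and 20 bases before the RefSeq start in the order shown, outside the annotated exons of their genes. Sycp3 and Hormad1 each hold another E-box, 64 and 57 bases before the start. The E2F core GCGGGAA was found on either strand in 4 genes that also have the E-box, Sycp3, Syce2, Tex12 and Hormad1, against 4.38% of all genes. The motif CNCCTCAG of the meiotic entry factor STRA8, with N any base, was found in Syce2 and Hormad2, against 7.39% of all genes, and in Syce2 it overlaps the E2F core. RefSeq lists 2 starts for Syce2, and its 3 matches precede only the downstream one. They lie after the upstream start, inside the annotated 5′ UTR of Syce2 transcripts, and their sequences are not shown.

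None of the 3 motifs was found in these windows of Sycp2, Syce1, Syce3 or Trip13. A match is a description of the letters and not a measured binding site.

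The RNA of the 10 genes was either abundant or close to nothing, and which genes were abundant differed from library to library. Of the 40 values (10 genes in 4 libraries), 14 lay between 205 and 1987 CPM, 24 lay below 10 CPM, and the other 2, both of Syce2, lay between these ranges. At 200 CPM or more, a level chosen after the values were seen, stood 6 of the 10 genes in ND replicate 1, 2 in ND replicate 2, 4 in HFD replicate 1 and 2 in HFD replicate 2. At 10 CPM or more stood 40.0% of the members' values and 13.6% of the values of all 19335 genes tested. No member reached 200 CPM in all 4 libraries. Syce1 did so in 3, Sycp1, Sycp3 and Hormad1 in 2, Sycp2, Syce2, Tex12, Hormad2 and Trip13 in 1, and Syce3 in none.

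**Figure D1:**
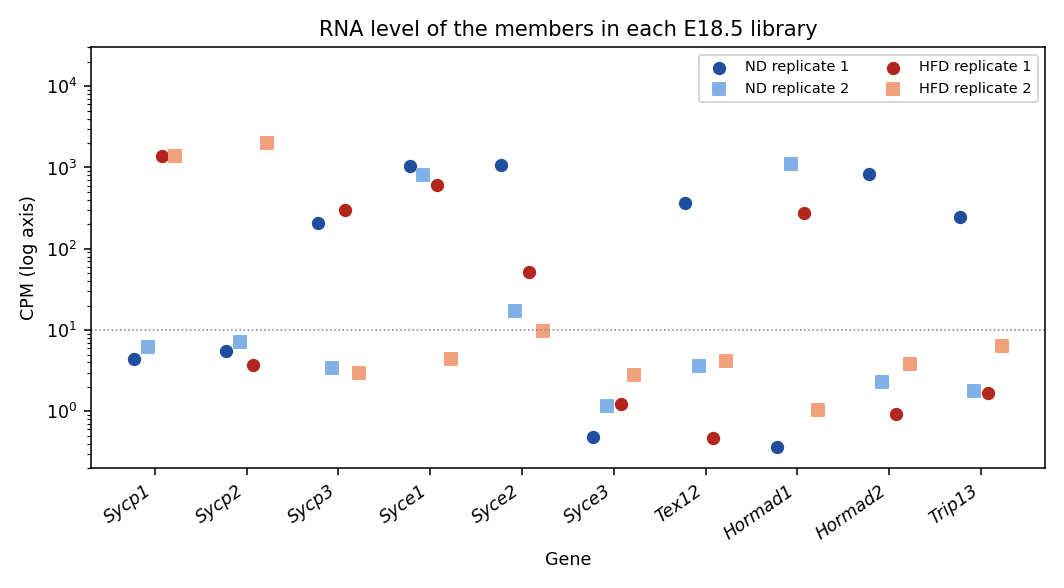
RNA level of the 10 genes in CPM (logarithmic vertical axis) in ND replicates 1 and 2 (blue) and HFD replicates 1 and 2 (red), 1 point per library, with a dotted line at 10 CPM. Of the 40 points, 14 lie at 205 CPM or above and 24 below 10 CPM, and Sycp1 has both HFD points near 1400 CPM over both ND points at 4.38 and 6.14 CPM.

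Sycp1 (ENSMUSG00000027855, chr3:102818499-102936100, minus strand, GRCm38, as are all gene positions here), the gene of the transverse filament, was counted 36 and 48 times under ND and 9038 and 7978 times under HFD. Both HFD libraries were far above both ND libraries, at 1397 ± 4.16 CPM against 5.26 ± 1.25 CPM (SD, n = 2 each). The close match of the 2 HFD values depended on scaling by the library total, since trimmed mean (TMM) scaling, which corrects for a few abundant genes, gave 1505 ± 777 CPM against 5.54 ± 1.61 CPM. The fitted log2 fold change of HFD over ND was 8.08 (standard error 2.35), with an adjusted p of 0.406 and an unadjusted p of 0.0156 in edgeR's quasi-likelihood test. With each library left out in turn it ran from 7.31 to 8.54. In DESeq2, an alternative count model, the adjusted p of Sycp1 was 8.27e-09. Part of its transcript, at most 123 bases, matches transcripts of 64 other genes at 95% identity or more, which is short against 3556 bases of exon, and its pseudogene Sycp1-ps1 had 8, 1, 26 and 3 counts in the same library order.

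Sycp2 (ENSMUSG00000060445, chr2:178345293-178407685, minus strand), a lateral element gene, was counted 46 and 55 times under ND, 24 times in HFD replicate 1 and 11371 times in HFD replicate 2. HFD replicate 2 alone was high and the other HFD library was the lowest of the 4, so the diets overlapped. The means were 6.32 ± 1.02 CPM in ND and 995 ± 1402 CPM in HFD (SD, n = 2 each), where the HFD SD is larger than its mean. The fitted log2 fold change of 6.68 (standard error 2.95, edgeR adjusted p 0.406) became -0.27 without HFD replicate 2. The transcripts of Sycp1 and Sycp2 were thus both abundant in HFD replicate 2, while in HFD replicate 1 Sycp1 was at 1400 CPM and Sycp2 at 3.72 CPM.

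Sycp3 (ENSMUSG00000020059, chr10:88459569-88473236, plus strand), the other lateral element gene and the usual stain for the chromosome axis, had 1684 and 27 counts in ND and 1958 and 17 counts in HFD. Replicate 1 of each diet was high and replicate 2 of each was low, so the diets overlapped. Its fitted difference on the log2 scale was 1.09 (standard error 2.67, edgeR adjusted p 0.926) and went from -5.79 without HFD replicate 1 to 5.86 without ND replicate 1. Of its 1264 exon bases, 660 are shared on the other strand with Chpt1, a phospholipid synthesis gene that had 40 and 42 counts in ND and 5120 and 48 in HFD. SMART-Seq2 does not mark the strand, so in HFD replicate 1, where both genes had a high count, reads of this shared stretch cannot be told apart, whereas in ND replicate 1 Sycp3 had 1684 counts beside 40 of Chpt1.

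Among the central element genes, Syce1 (ENSMUSG00000025480, chr7:140777229-140787852, minus strand) was abundant in the most libraries, with 8654 and 6308 counts in ND and 3919 and 25 counts in HFD. Both HFD values lay below both ND values, at 306 ± 426 CPM against 930 ± 173 CPM (SD, n = 2 each), and HFD replicate 2 stood apart from the other 3 libraries. Under TMM scaling the diets of Syce1 overlapped, at 447 ± 628 against 967 ± 128 CPM. The fitted log2 fold change of -1.11 (standard error 2.52, edgeR adjusted p 0.918) was -0.11 without HFD replicate 2 and -8.45 without HFD replicate 1.

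Syce2 (ENSMUSG00000003824, chr8:84872111-84888221, plus strand), whose protein pairs with TEX12 in the fibres of the central element, had 8934 and 135 counts in ND and 334 and 55 in HFD. ND replicate 1 held 93.3% of its summed CPM, and ND replicate 2 lay between the 2 HFD libraries. For Syce2 the fitted log2 fold change was -3.75 (standard error 2.57, edgeR adjusted p 0.577), and 1.10 without ND replicate 1. Tex12 (ENSMUSG00000032065, chr9:50556819-50561325, minus strand) had 2992 and 28 counts in ND and 3 and 24 in HFD, so that ND replicate 1 again stood alone, with 97.8% of its summed CPM. For Tex12 it was -6.68 (standard error 2.58, edgeR adjusted p 0.406), and -1.22 without ND replicate 1. The genes of this protein pair were thus both highest in ND replicate 1, but in HFD replicate 1 Syce2 kept 51.7 CPM where Tex12 had 0.465 CPM, a count at the detection floor.

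Syce3 (ENSMUSG00000078938, chr15:89390174-89410503, minus strand), a small central element gene, had 4 and 9 counts in ND and 8 and 16 in HFD. It was the only member below 3 CPM in every library and the only one that did not pass the filter on low counts, so it was not tested in edgeR. Both HFD values (2.02 ± 1.10 CPM, SD, n = 2) lay just above both ND values (0.819 ± 0.470 CPM, n = 2), by 1.24 against 1.15 CPM at the nearest. DESeq2 gave it no adjusted p.

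Hormad1 (ENSMUSG00000028109, chr3:95559677-95587671, plus strand), needed for break formation on unjoined axes, had 3 and 8595 counts in ND and 1759 and 6 in HFD. ND replicate 2 and HFD replicate 1 were high and the other 2 libraries were at or near the detection floor, so each diet held a high and a low library. The fitted log2 fold change of -1.58 (standard error 3.43, edgeR adjusted p 0.912) went from -9.79 without HFD replicate 1 to 9.06 without ND replicate 2. A stretch of 994 bases matches the pseudogene Gm15529 at 97.9% identity, and that gene had at most 4 counts in a library.

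Hormad2 (ENSMUSG00000020419, chr11:4345814-4441105, minus strand), the paralog of Hormad1, showed another order, with 6759 and 18 counts in ND and 6 and 22 in HFD. ND replicate 1 alone was high and held 99.1% of the summed CPM, in the library where Hormad1 had 3 counts. For Hormad2 the fitted log2 fold change was -7.68 (standard error 2.99, edgeR adjusted p 0.406), and -0.41 without ND replicate 1. The 2 HORMA-domain genes were not abundant together in any of the 4 libraries. Trip13 (ENSMUSG00000021569, chr13:73911347-73937784, minus strand), whose protein takes HORMA-domain proteins off the axis, had 2049 and 14 counts in ND and 11 and 36 in HFD. It was high in ND replicate 1 only, with 96.2% of its summed CPM there, as for Hormad2 and not as for Hormad1. Its fitted log2 fold change was -5.20 (standard error 2.30, edgeR adjusted p 0.406), and 0.72 without ND replicate 1.

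**Figure D2:**
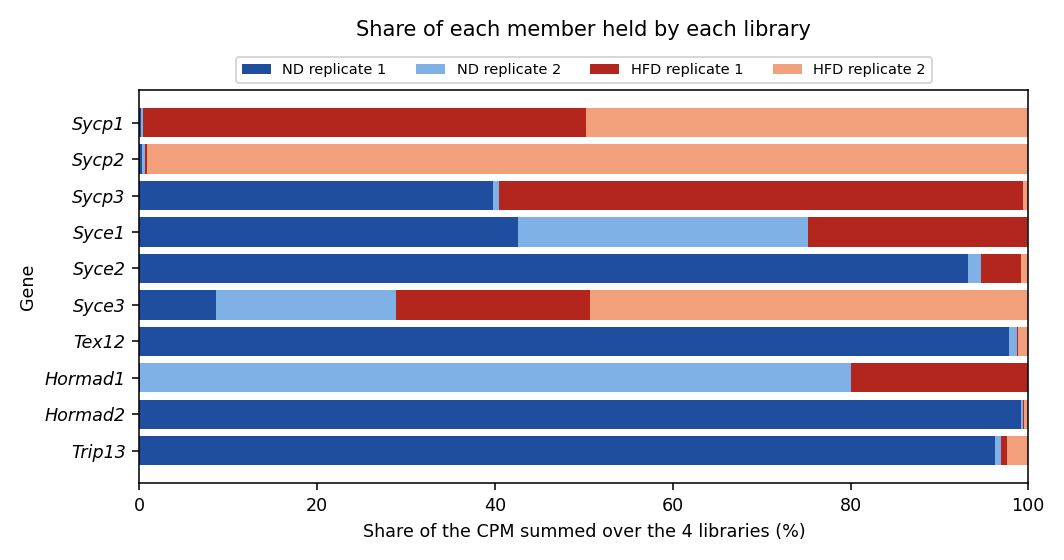
Share of each gene's CPM, summed over the 4 libraries, that each library held, in percent (horizontal axis from 0 to 100). Sycp2 is filled by HFD replicate 2 (99.2%), Syce2, Tex12, Hormad2 and Trip13 are filled by ND replicate 1 (93.3% to 99.1%), and Sycp1 is split between the 2 HFD libraries.

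Taking 80% of the summed CPM as the limit, 1 library carried 6 of the 9 members that passed the filter on low counts, against 13.1% of all 19335 genes that passed it. These were Sycp2 (99.2% in HFD replicate 2), Hormad1 (80.1% in ND replicate 2), and Syce2, Tex12, Hormad2 and Trip13 in ND replicate 1. Syce3, which did not pass, had its highest share, 49.3%, in HFD replicate 2. The highest library was ND replicate 1 for 5 of the 9 members (18.7% of all genes tested), ND replicate 2 for 1 (18.2%), HFD replicate 1 for 2 (12.5%) and HFD replicate 2 for 1 (50.6%). The ratio of the highest to the lowest library had a median of 280 over the 10 members and of 5.16 over the 18621 genes tested that had a count in every library. Of all genes tested, 49.2% were above the background limit defined further on in no library, as was no member. These comparisons therefore set the members beside many genes near background. Genes of similar level were not compared, so the pattern is not shown to be particular to the members. Summed over the 10 genes the levels differed less, at 3789 and 1950 CPM in ND and 2642 and 3416 CPM in HFD.

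In edgeR, 0 of the 9 members and 0 of the 19335 genes tested (0%) passed an adjusted p under 0.05 with a fold change over 1.5. At an unadjusted p under 0.05 stood 2171 of all genes, and among the members Sycp1 with a higher level in HFD (1 of 9, against 4.82% of all genes) and Tex12 and Hormad2 with a lower level (2 of 9, against 6.41%). limma-voom called 0 genes, edgeR's legacy fit called 34 genes, none of them a member, and DESeq2 on all genes called 2539 genes, 6 of them members. Sycp1 and Sycp2 were higher in HFD, 2 of 9 members with an adjusted p against 24.3% of the 5601 genes with one, and Syce2, Tex12, Hormad2 and Trip13 were lower, 4 of 9 against 21.0%. The DESeq2 adjusted p-values were 0.000509 for Sycp2, 0.0493 for Syce2, 0.000378 for Tex12, 0.000103 for Hormad2 and 0.00469 for Trip13. Of these 6, Sycp1 was the only gene with both libraries of 1 diet high, and the other 5 were each carried by 1 library. Both HFD libraries lay above both ND libraries in CPM for Sycp1, and also for the untested Syce3, which is 1 of the 9 tested members against 13.9% of all genes, and below both for Syce1 (1 of 9, against 13.4%). With 2 libraries against 2, an exact permutation test of a single gene cannot give a two-sided p below 0.333.

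**Figure D3:**
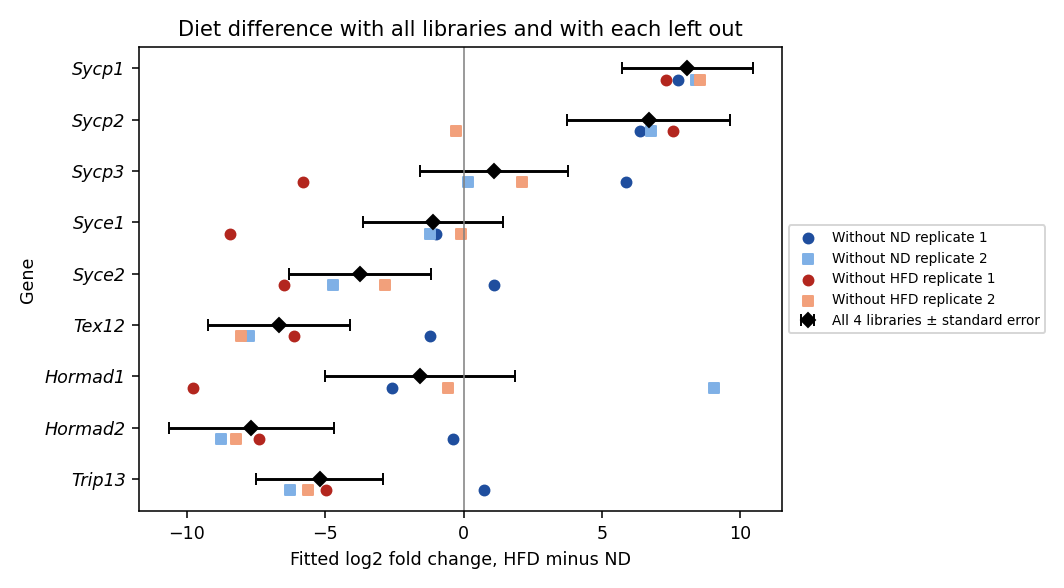
Fitted log2 fold change of HFD over ND from edgeR for the 9 members tested (black diamonds, bars are the standard error) and the same value with each of the 4 libraries left out (coloured points). The 5 points of Sycp1 lie between 7.31 and 8.54, while a point of Sycp2, Sycp3, Syce2, Hormad1 or Trip13 lies across zero from its diamond.

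The direction of the fitted difference held with every library left out for Sycp1, Syce1, Tex12 and Hormad2, and it turned for Sycp2, Sycp3, Syce2, Hormad1 and Trip13 when 1 library was left out. The median log2 fold change of the 9 members was -1.58, with 3 higher and 6 lower in HFD, beside 0.03 over all genes tested. The members lower in HFD with the largest fitted values, Hormad2, Tex12, Trip13 and Syce2, all had their high value in ND replicate 1. The blood markers summed to 1972 CPM in that library, and a link with these genes was not tested. Without that library the values of these 4 genes lay between -1.22 and 1.10. This change follows from their grouping, since ND replicate 1 held 93.3% to 99.1% of their summed CPM.

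Levels between genes were compared as CPM per kilobase of exon (RPKM). In this unit Syce1 had the highest mean over the 4 libraries, at 423 ± 307, followed by Hormad1 at 199 ± 301, Sycp1 at 197 ± 226, Syce2 at 148 ± 270 and Sycp3 at 102 ± 119 (SD, n = 4). Tex12 at 91.6 ± 178, Sycp2 at 83.9 ± 166, Hormad2 at 75.8 ± 150, Trip13 at 18.6 ± 35.4 and Syce3 at 2.56 ± 1.77 RPKM completed the order. In all 9 neighbouring pairs the difference of the means was smaller than the larger of the 2 SDs, so the order of neighbours was not resolved. The first gene in RPKM was Syce1 in ND replicate 1 (721) and HFD replicate 1 (416), Hormad1 in ND replicate 2 (636) and Sycp1 in HFD replicate 2 (392). The last was Hormad1 in ND replicate 1 (0.211) and HFD replicate 2 (0.606), Trip13 in ND replicate 2 (0.516) and Hormad2 in HFD replicate 1 (0.340), so the same gene, Hormad1, stood first in 1 ND library and last in the other.

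Low counts were set against a background limit, the 99th percentile of the reads per kilobase of 1135 olfactory receptor genes, which fetal oocytes are not known to use, a measure taken over from earlier work on these data. The limit was 8.47 and 9.01 reads per kilobase in ND and 7.44 and 12.5 in HFD. Above it were 7 and 8 members in ND and 6 and 7 in HFD, 28 of the 40 values. Sycp1, Sycp3, Syce1 and Syce2 were above it in all 4 libraries, as were 4.37% of all genes tested, and no member was below it in all 4, as were 49.2% of all genes tested. Sycp1 in the ND libraries, at 10.1 and 13.5 reads per kilobase, was just over the limit, and Syce3 reached 28.9 at most. Hormad2 and Trip13 were above it in ND replicate 1 only and Hormad1 in the 2 libraries where it was high.

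**Figure D4:**
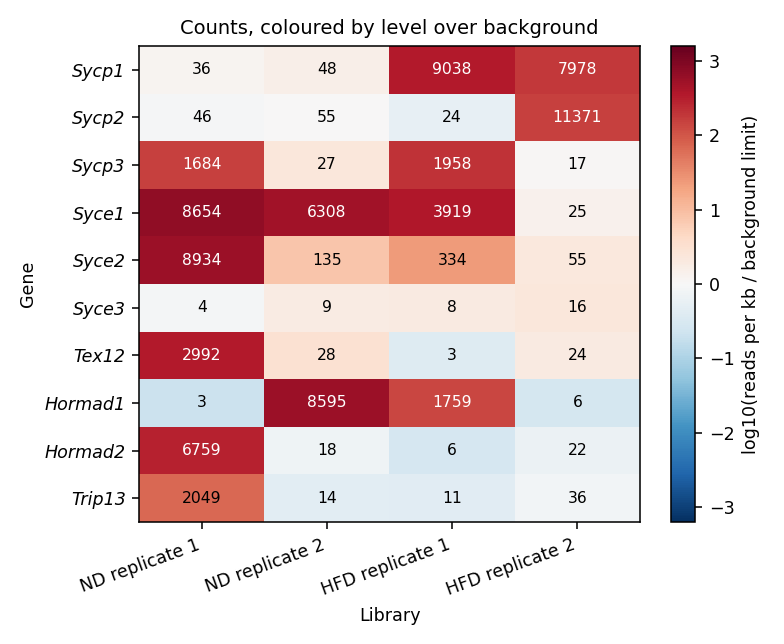
Raw counts of the 10 genes (rows) in the 4 libraries (columns), coloured by the log10 ratio of reads per kilobase to the background limit of that library, red above and blue below. Dark red cells, far over background, fall in different columns for different genes, and 28 of the 40 values are above the limit.

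The genes that work beside the complex were taken as a list of 40, of which 35 passed the filter on low counts. HFD exceeded ND for 20 of them and ND exceeded HFD for 15, with a median log2 fold change of 0.34, and 0 passed the edgeR limits. At an unadjusted p under 0.05 in edgeR stood Terb1, which ties telomeres to the nuclear envelope (log2 fold change 5.21), and on the lower side Mad2l1 (-5.67), Meiob (-6.01), Ankrd31 (-1.42) and Hfm1 (-1.03). These are 1 of 35 higher, against 4.82% of all genes tested, and 4 of 35 lower, against 6.41%. Terb1, Mad2l1 and Meiob each had over 80% of their summed CPM in 1 library. Terb1 had 19 and 17 counts in ND and 756 and 28 in HFD, and its log2 fold change was 0.40 without HFD replicate 1. Mad2l1, a HORMA-domain gene described further on, was still at -2.41 without ND replicate 1. Meiob, a recombination gene that binds single-stranded DNA, had 11 and 1363 counts in ND and 6 and 13 in HFD, with a log2 fold change of 0.06 once ND replicate 2 was left out. Ankrd31, needed for break formation, had 47 and 71 counts in ND and 14 and 22 in HFD, and Hfm1, a crossover helicase, had 41 and 21 in ND and 8 and 17 in HFD. Ankrd31 was above the background limit in ND replicate 2 only, and Hfm1 was above it in no library. In CPM the diets did not overlap for Terb1, Mad2l1 and Ankrd31 and overlapped for Meiob and Hfm1, all picked by their p. Over the whole list, both HFD libraries lay above both ND libraries for 7 of 35, against 13.9% of all genes tested. They lay below both for 3 of 35, against 13.4%. DESeq2 on all genes called Fkbp6 and Terb1 higher, 2 of the 9 partner genes with an adjusted p against 24.3% of all genes with one, and Mad2l1 and Meiob lower, 2 of 9 against 21.0%, shares close to those of all genes.

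For each member the partner gene with the nearest pattern was found by Euclidean distance of log2 CPM centred per gene over the 4 libraries. For Tex12 (distance 1.57), Trip13 (2.54), Hormad2 (2.81) and Syce2 (3.89) it was the same gene, Mad2l1, with 2874 and 130 counts in ND and 9 and 43 in HFD. Mad2l1 encodes MAD2, the HORMA-domain protein of the spindle checkpoint, and like these members it was highest in ND replicate 1. It was the most abundant partner gene in that library, at 349 CPM. The 4 matches thus restate the high values of ND replicate 1 and are not a separate result. For Sycp1 (4.00) and Sycp2 (5.05) the nearest partner was Fkbp6, a meiotic immunophilin gene. It had 152 and 355 counts in ND and 1885 and 6326 in HFD, so that both HFD libraries were above both ND libraries. For Sycp3 (3.70) it was 4930447C04Rik, the central element gene also called Six6os1, with 402 and 94 counts in ND and 590 and 67 in HFD, high in replicate 1 of each diet as Sycp3 was. Syce3 was nearest to Gm4969, also called Meiosin (0.27), with 25 and 51 counts in ND and 34 and 72 in HFD. Both genes had low counts in every library, so nothing is read from this small distance. Hormad1 was nearest to Ccdc36, also called Iho1, the partner of HORMAD1 in break formation (7.20, with 11 and 54 counts in ND and 224 and 20 in HFD). For Syce1 the nearest was Terb2 (4.68), which had 4 and 13 counts in ND and 13 and 0 in HFD and was above background in no library, so nothing is read from that match. Distances of this size over 4 libraries describe these libraries only. Some gene among the 40 is always nearest, and distances to genes outside the list were not taken.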

How the data were processed

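Poly(A) RNA of SSEA-1-sorted oocytes was sequenced by SMART-Seq2 by the authors, who deposited raw gene counts per library. The submitters' processing notes name FastQC, Trim Galore, HISAT2, featureCounts and mm10. The annotation release and the settings for strand and for reads with several matches are not given in the sources used here. Samples were grouped by diet from their labels. Gene identifiers were matched to GENCODE M21 (GRCm38), which did not list 260 of 55401. Counts of all genes were fitted with edgeR 4.0.16 (quasi-likelihood test, TMM scaling, filterByExpr, Benjamini-Hochberg adjustment over 19335 genes, no block) in R 4.3.3. The code was also run on simulated counts whose replicates differed less than the libraries here. That run does not show how the fit performs on these data. A gene was called at an adjusted p under 0.05 with a fold change over 1.5. DESeq2 1.42.0, limma-voom 3.58.1, other scalings, filters and each library left out were alternatives. Summed exon lengths gave reads per kilobase. Exon overlaps and transcript matches of at least 100 bases at 95% identity were listed. Promoter sequences are from RefSeq (GRCm38.p6). Named genes were every member, the partner nearest to each member and the leading gene of each marker list in each library. Partner genes with an unadjusted p under 0.05 were named too. Outside these rules, Ddx4, Taf7l, Tdrd1, Cdh5, Tek, Emcn, C1qa, Lyz2, Chpt1, Gm15529 and Sycp1-ps1 were named after their values were seen. The members and lists were chosen with earlier results of these data known. Replicate numbers were not used to pair samples, since the labels give only a number and the deviations of same-numbered libraries correlated at 0.01 across 19335 genes.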

Additional observations from a re-analysis of the deposited data

How the results depend on the processing

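No member was called in edgeR under TMM, relative log expression (RLE) or library-size scaling, either filter change, limma-voom, the legacy fit, the replicate block or any library left out. DESeq2 called 6 members on all genes and 5 on the filtered genes, where Syce2 was lost, and 4 and 3 partner genes, and the cause was not tested. The count of members with an unadjusted p under 0.05, 3 of 9 as reported, stood beside 2171 of 19335 genes. Under library-size scaling this count was 2 of 9 (1596 of 19335 genes). In the same DESeq2 fits it was 6 of 10 (3182 of 49005 genes) and 5 of 9 (3606 of 19335 genes). With at least 10 counts in every library it was 1 of 6 (1301 of 9677 genes). In limma-voom it was 1 of 9 (750 of 19335 genes) and in the legacy fit 0 of 9 (1205 of 19335 genes). For partner genes, 5 as reported, it was 2 under library-size scaling, 2 with at least 10 counts, 2 in limma-voom, 0 in the legacy fit and 2 to 7 with 1 library left out. The replicate block, for numbers that do not pair the libraries, left 1 member and 0 partner genes at that limit, beside 1482 of 19335 genes. Directions turned for Hormad1 in limma-voom (1.14). With 1 library left out, log2 fold changes ran from -0.27 (without HFD replicate 2) to 7.56 for Sycp2, -5.79 (without HFD replicate 1) to 5.86 for Sycp3, -6.51 to 1.10 (without ND replicate 1) for Syce2, -9.79 to 9.06 (without ND replicate 2) for Hormad1 and -6.27 to 0.72 (without ND replicate 1) for Trip13. Members with non-overlapping diets, the untested Syce3 included, numbered 3 in CPM and 5 under RLE, Tex12 and Hormad2 added. Under TMM, a scaling added here after seeing the data, they were Sycp1, Syce3 and Tex12. The share over all genes was not taken under RLE or TMM, so nothing is read from these counts. Library-size scaling moved the median log2 fold change of all genes from 0.03 to 0.21, and no member turned under it. Members' values at 10 CPM or more numbered 16, against 28 above the background limit. With 2 pools per diet, no interval covers variation between litters.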
